A study of Mus musculus with 6 samples.

Results

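Inflammasome components were examined in bone marrow-derived macrophages exposed to oxidised low-density lipoprotein (oxLDL, the altered cholesterol carrier that scavenger receptors bring into macrophages in an artery wall) or left untreated. The 8 genes were chosen by symbol: the sensors Nlrp3, Nlrc4, Naip2 and Naip5, the adaptor Pycard, the caspases Casp1 and Casp4, and the cytokine Il18. All 8 were present among the 24054 genes of the tables, and all 8 were among the 11400 genes with enough counts to be tested. Both groups came from wild-type C57BL/6 mice and were grown from marrow for 7 days in L929-conditioned medium. The 3 oxLDL samples then received oxLDL at 50 µg/ml for 24 hours, and the 3 untreated samples did not. Each group holds the numbers 1, 2 and 3, and the samples of a number are compared as a pair. Nothing in the labels says that the numbers were separate animals or cultures, or what the word mix in every title means. The p-values therefore speak only for the spread among these 6 libraries, which may be technical in part. Where the number is fitted as a block, they speak only for the spread left once differences between the numbers are taken out.

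An inflammasome is a cytosolic complex that a macrophage builds around a sensor protein when it meets microbial products or damage. NLRP3 answers many forms of membrane and ion disturbance, whereas NAIP proteins bind bacterial flagellin or secretion-system proteins and hand the signal to NLRC4. The adaptor ASC, encoded by Pycard, gathers caspase-1, which matures interleukin-1 beta and interleukin-18 and cuts gasdermin D into a pore, and caspase-11, encoded by Casp4 in the mouse, cuts gasdermin D after binding cytosolic lipopolysaccharide. In atherosclerosis, crystals of cholesterol and modified lipoproteins are known triggers of NLRP3 in macrophages. Transcript levels were measured here, and not complex assembly, cleavage or release.

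Sequencing depth was even, at 13546572 to 15559310 expected counts per library. Both libraries numbered 3 stood apart: log2 values of numbers 1 and 2 correlated within a group at r = 0.983 to 0.984 across genes, and number 3 correlated with them at 0.889 to 0.922. For the 8 components results are therefore given with and without pair 3 where its removal changed a call. Other genes are given from all 3 pairs unless stated. Without pair 3 the blocked edgeR fit passed 29.9% of all tested genes, some of which are said below not to pass. Among the markers these included Itgam, Adgre1 and Cd68 (edgeR adjusted p = 0.00116, 0.00374 and 0.0274 without pair 3). The macrophage markers Cd14 and Lyz2 likewise passed in edgeR without pair 3 but not with all 3 pairs (adjusted p = 0.00272 and 0.0199 without it). So did the dendritic cell marker Xcr1 (0.0351) and the granulocyte marker Ngp (0.0416). Lyz2 also passed in DESeq2 with the block (adjusted p = 0.0108). The 8 macrophage markers summed to 12725 to 35807 CPM in untreated and 8983 to 15956 CPM in oxLDL samples (CPM is the deposited count scaled to library size with TMM factors). Among them Fcgr1, a high-affinity immunoglobulin receptor, fell from 371, 511 and 573 CPM to 41.4, 15.2 and 42.1 CPM with oxLDL (-3.98 on the log2 scale, edgeR adjusted p = 0.0287, and 0.0718 without the block). Itgam and Adgre1 (listed as Emr1) were lower with oxLDL without overlap, at -2.14 and -2.36 on the log2 scale. In blocked edgeR both missed the threshold (adjusted p = 0.0547 and 0.145), as they did without the block (0.142 and 0.262). Itgam passed in DESeq2 with the block (adjusted p = 5.89e-08) and without it (0.000138). It also passed in limma-voom with the block (0.0419) and in blocked edgeR with no low-count filter (0.0473). With pair 1 or pair 2 left out it missed (0.286 and 0.252). Adgre1 passed in DESeq2 without the block (0.0245) but not with it (0.101). Cd68 was higher without overlap but short of the threshold (0.62, edgeR adjusted p = 0.187), and Mertk ranged from 9.76 to 80.8 CPM. Markers of T cells, mast cells, erythroid cells and stroma stayed under 1 CPM. Neutrophil and granulocyte precursor markers summed to 6.96 to 30.7 CPM in untreated and 1.26 to 4.76 CPM in oxLDL samples over 7 measured genes, with Elane below 1 CPM throughout. The B cell receptor gene Cd79b measured 38.1, 22.3 and 3.04 CPM in untreated and 9.26, 4.98 and 1.53 CPM in oxLDL samples. Its groups overlapped, and it fell (log2 fold change -1.83, edgeR adjusted p = 0.0362, and 0.419 without the block), while Cd79a and Ms4a1 stayed under 1 CPM. The dendritic cell list summed to 4.38 to 8.78 and 3.56 to 15.5 CPM. The part of these cells in the results was not tested, and in bulk RNA fewer cells of a type and less RNA per cell cannot be told apart.

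The comparison of oxLDL with untreated samples asked how these transcripts differ after exposure. Casp1, Casp4, Pycard and Il18 had lower values with oxLDL in each of the 3 pairs, and Naip2 had higher values in each. Nlrp3 was higher in pairs 1 and 3 and level in pair 2, while Nlrc4 and Naip5 showed no common direction. In edgeR's quasi-likelihood test with the number as a block, 0 of the 8 components passed an adjusted p of 0.05, against 5.89% of all tested genes. At an unadjusted p under 0.05 stood 4 of the 8, Casp4, Casp1, Naip2 and Pycard, against 29.0% of all tested genes. The same 4 genes were called by DESeq2 with the block, which called 16.3% of all tested genes, and limma-voom with the block called 2 of them, Casp4 and Naip2, against 8.12%. With no filter on low counts edgeR called 1, Casp4, against 4.84%, and DESeq2 without the block called 1, Casp1, against 7.65%.

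Without the block 0 of the 8 passed in edgeR, as did 0% of all tested genes, and 2 stood at an unadjusted p under 0.05 (14.7% of all tested genes). With pair 3 left out, the blocked edgeR fit passed the 4 named genes, against 29.9% of all tested genes, and with pair 1 or pair 2 left out it passed 0, as it did 0% of all tested genes. The same direction in all 3 pairs was seen in 5 of 8 components and in 53.1% of all tested genes. The groups did not overlap in 1 of 8, Casp1, and in 21.0% of all tested genes. The median log2 fold change of the 8 was -0.30, beside 0.012 over all tested genes.

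**Figure D1:**
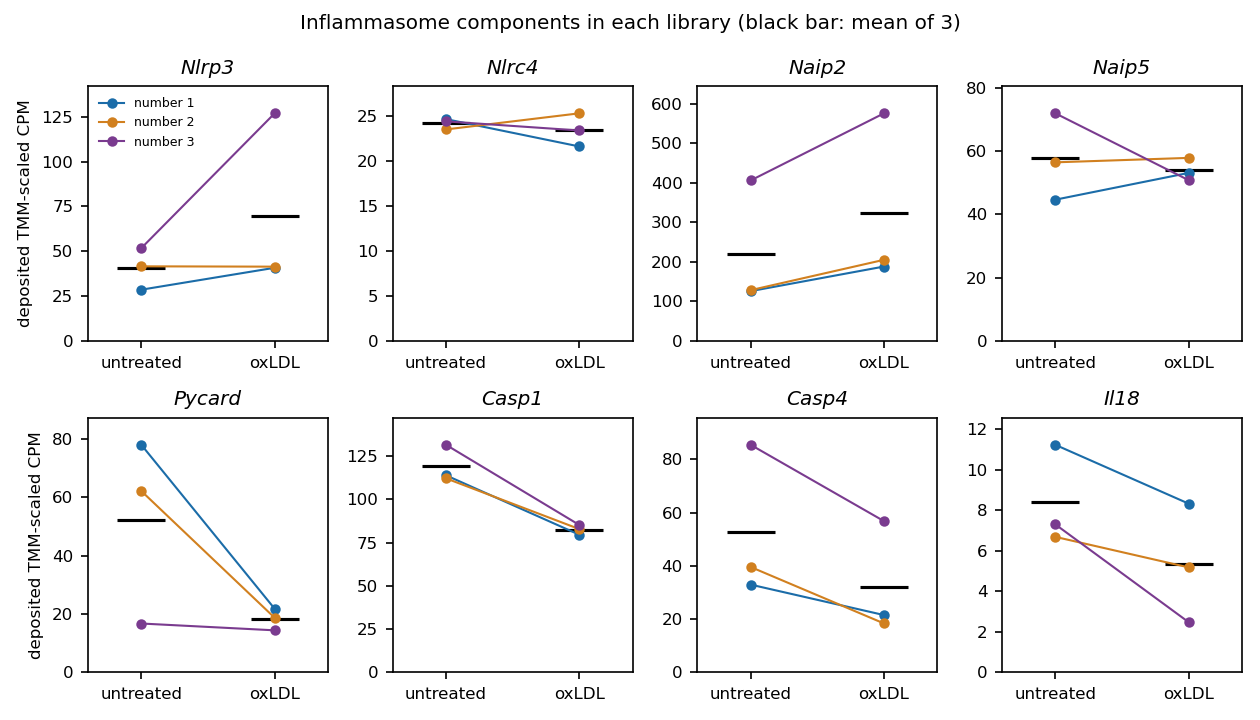
Deposited TMM-scaled CPM (vertical axes, each from 0) of the 8 inflammasome components in untreated and oxLDL samples. Lines join the samples of a number and black bars are means of 3. Casp1 is the panel in which no oxLDL sample reaches an untreated one. Naip2 and Casp4 show number 3 far from numbers 1 and 2 in both groups, Pycard in the untreated group and Nlrp3 in the oxLDL group.

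Among the sensors, Naip2, the receptor for the inner rod of bacterial type III secretion systems, measured 126, 128 and 406 CPM in untreated samples 1, 2 and 3. The oxLDL samples of the same numbers measured 188, 205 and 576 CPM. Number 3 was the highest in both groups, and oxLDL samples 1 and 2 lay below untreated sample 3, so the groups overlapped although every pair was higher with oxLDL. The log2 ratios were 0.58, 0.68 and 0.50 in pairs 1, 2 and 3. The blocked edgeR estimate was a log2 fold change of 0.59 ± 0.13 (SE, n = 3 pairs; adjusted p = 0.0685, and 0.747 without the block). With pair 3 left out it was 0.64 (adjusted p = 0.0131, edgeR), and DESeq2 with the block gave an adjusted p of 0.00612. The spread between untreated samples was 3.22-fold, and the means of 220 and 323 CPM (n = 3) carried SDs of 161 and 219 CPM.

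Naip5, its close relative and a receptor for flagellin, did not share this pattern. Untreated Naip5 values were 44.6, 56.4 and 71.9 CPM, and those with oxLDL were 53.1, 57.8 and 50.8 CPM. The oxLDL values fell inside the untreated range, and the pairs differed in direction (log2 ratios 0.25, 0.035 and -0.50). Its log2 fold change was -0.07 ± 0.18 (SE; edgeR adjusted p = 0.819, 95% interval -0.54 to 0.40), and with pair 3 left out it was 0.15. Naip2 and Naip5 are neighbours on chromosome 13 in RefSeq's GRCm38.p6 annotation, followed by Naip6, and their counts were not whole in any of the 6 samples, as happens where RSEM divides reads that map to more than one gene.

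The likeness of these paralogs extends to the sequence before their start sites, which is why both are shown. RefSeq (build GRCm38.p6, minus strand) places the 250 bases before the start of Naip2 at chr13:100202123-100202372 and those of Naip5 at chr13:100247337-100247586. Capitals mark the bases that are identical in a local alignment of the 2 stretches.
Naip2: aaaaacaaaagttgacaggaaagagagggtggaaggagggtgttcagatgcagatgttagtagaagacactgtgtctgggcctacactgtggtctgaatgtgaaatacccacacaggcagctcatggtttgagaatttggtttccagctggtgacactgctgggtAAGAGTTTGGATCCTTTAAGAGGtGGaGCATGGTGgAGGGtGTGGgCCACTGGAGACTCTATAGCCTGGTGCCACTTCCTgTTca
Naip5: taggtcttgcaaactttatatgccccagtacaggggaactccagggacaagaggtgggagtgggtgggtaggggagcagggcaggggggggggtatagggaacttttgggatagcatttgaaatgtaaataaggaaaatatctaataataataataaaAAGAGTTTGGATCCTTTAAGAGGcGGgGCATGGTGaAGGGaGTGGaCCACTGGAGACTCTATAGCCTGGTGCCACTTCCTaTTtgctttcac
The aligned stretch held 83 positions, of which 77 (92.8%) were identical. It ran from -85 to -3 in Naip2 and from -92 to -10 in Naip5, where -1 is the base before the start site. Only the best local alignment was kept, so likeness farther upstream was not searched for.

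Because reads may pass between these genes, the family was also summed. Naip1, Naip2, Naip5 and Naip6 together gave 209, 238 and 526 CPM without and 284, 308 and 657 CPM with oxLDL. The sum was higher with oxLDL in all 3 pairs (log2 ratios 0.44, 0.37 and 0.32), a value given without a test. Naip2 supplied 60.2%, 54.0% and 77.3% of the untreated sums and 66.4%, 66.7% and 87.7% of the oxLDL sums. Naip6, a further flagellin receptor, had a log2 fold change of -0.31 ± 0.19, and Naip1, the receptor for the needle protein, one of 0.51 ± 0.41. Neither passed (edgeR adjusted p = 0.357 and 0.449).

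Nlrc4, the partner on which NAIP receptors build their complex, was the steadiest of the 8. It measured 24.6, 23.5 and 24.4 CPM untreated and 21.6, 25.3 and 23.4 CPM with oxLDL. All 6 samples lay within a narrow range and the groups overlapped. Its log2 fold change was -0.05 ± 0.12 (SE; edgeR adjusted p = 0.814), with a 95% interval of -0.36 to 0.26 that bounds the difference at this depth. Unlike Naip2 and Casp4, its number 3 samples did not stand apart.

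Nlrp3, the sensor of membrane damage and potassium loss, measured 28.6, 41.6 and 51.8 CPM in untreated samples. With oxLDL it measured 40.8, 41.4 and 127 CPM. Only oxLDL sample 3 lay above all untreated samples, while oxLDL samples 1 and 2 fell within their range. The log2 ratios of 0.51, -0.0065 and 1.29 differed between pairs. The blocked estimate of 0.60 ± 0.26 on the log2 scale missed the threshold (SE; edgeR adjusted p = 0.216, 95% interval -0.09 to 1.30), and it was 0.26 with pair 3 left out. The mean of 69.7 ± 49.6 CPM (SD, n = 3) with oxLDL against 40.6 ± 11.6 CPM untreated thus rests on that library.

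The stretch before the most upstream of the 2 Nlrp3 starts listed by RefSeq is shown because it held a match to the NF-kB consensus, the site of the factor known to prime Nlrp3 (GRCm38.p6, plus strand, chr11:59541319-59541568, match in capitals).
Nlrp3: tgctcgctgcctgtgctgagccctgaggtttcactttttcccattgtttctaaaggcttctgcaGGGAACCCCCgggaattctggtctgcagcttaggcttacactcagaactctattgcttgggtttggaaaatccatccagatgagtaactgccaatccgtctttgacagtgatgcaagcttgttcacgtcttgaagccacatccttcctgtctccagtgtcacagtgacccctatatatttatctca
The match spanned -186 to -177. A match was also found in the 250 bases before the starts of Casp4 and Naip5, and 7.03% of the 27025 genes with such a stretch held one. The core of the interferon-stimulated response element, which is GAAA and GAAA with 2 bases of any kind between them, was in 0 of the 8 stretches and in 3.05% of all. The Ets-IRF composite element, GGAA and GAAA spaced likewise, was in 0 of 8 and 2.38%, and the interferon gamma activation site, TTCNNNGAA, in 0 of 8 and 7.14%. Both strands were searched, and a match or its absence describes only the letters of this window.

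Pycard, which encodes the adaptor ASC, had the largest estimate of the 8 components. Untreated samples measured 78.0, 62.2 and 16.8 CPM, and oxLDL samples 21.8, 18.7 and 14.4 CPM. Numbers 1 and 2 were far lower with oxLDL, but untreated sample 3 was already at the level of the oxLDL samples, so the groups overlapped. The log2 ratios were -1.84, -1.73 and -0.22 in pairs 1, 2 and 3. The blocked log2 fold change was -1.29 ± 0.36 (SE; edgeR adjusted p = 0.0988, and 0.292 without the block). Without pair 3 it was -1.78 (adjusted p = 0.00108, edgeR), and DESeq2 with the block gave an adjusted p of 0.00480. Its counts ran from 198 to 1133, all whole.

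Casp1, the protease that matures interleukin-1 beta and interleukin-18, measured 114, 112 and 132 CPM untreated. The oxLDL samples measured 79.6, 82.8 and 85.2 CPM. Every oxLDL sample was below every untreated sample, and the 3 log2 ratios were close together at -0.52, -0.44 and -0.63. The means were 119 ± 10.7 and 82.5 ± 2.83 CPM (SD, n = 3 per group), a difference larger than the spread in either group. Still, the blocked estimate of -0.53 ± 0.11 missed the threshold (SE; edgeR adjusted p = 0.0627, and 0.175 without the block). DESeq2 called it both with the block (adjusted p = 0.0176) and without it (0.00291), and edgeR called it with pair 3 left out (0.0299). RSEM divided some Casp1 reads with other genes, and its counts were not whole in 4 of 6 samples.

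Casp4, the mouse caspase-11 of the non-canonical inflammasome, follows Casp1 on chromosome 9 in the same annotation. It measured 33.0, 39.6 and 85.5 CPM untreated and 21.5, 18.4 and 56.8 CPM with oxLDL. Each pair was lower with oxLDL, and number 3 was the highest in both groups, so that oxLDL sample 3 exceeded untreated samples 1 and 2. The log2 ratios were -0.61, -1.11 and -0.59. Its blocked log2 fold change of -0.77 ± 0.15 came nearest to the threshold among the 8 (SE; edgeR adjusted p = 0.0547, and 0.605 without the block). It passed in limma-voom (adjusted p = 0.0469) and DESeq2 (0.00523) with the block, in edgeR with no filter on low counts (0.0471), and with pair 3 left out (0.0163). The interval of the main estimate was -1.15 to -0.39.

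The 250 bases before the most upstream Casp4 start in RefSeq (GRCm38.p6, plus strand, chr9:5308599-5308848) are shown because they held more NF-kB matches than those of any other component. Capitals mark them.
Casp4: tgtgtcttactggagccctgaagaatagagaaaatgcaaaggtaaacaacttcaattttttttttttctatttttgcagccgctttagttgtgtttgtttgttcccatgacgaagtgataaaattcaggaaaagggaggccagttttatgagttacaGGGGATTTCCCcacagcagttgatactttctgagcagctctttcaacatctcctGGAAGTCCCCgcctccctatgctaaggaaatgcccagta
The longer capital stretch, from -93 to -83, holds 2 overlapping matches, and the other spans -39 to -30. The same window before Casp1 held none.

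Il18, the cytokine that caspase-1 matures and which cells store as a precursor, was scarce. Untreated samples measured 11.2, 6.68 and 7.30 CPM, and oxLDL samples 8.32, 5.18 and 2.48 CPM. Each pair was lower with oxLDL, but oxLDL sample 1 lay above untreated samples 2 and 3. The counts behind these values ran from 34 to 163. Its log2 ratios were -0.43, -0.37 and -1.56, and the blocked estimate of -0.75 ± 0.30 missed the threshold (SE; edgeR adjusted p = 0.186, 95% interval -1.54 to 0.03). With pair 3 left out the estimate was -0.39.

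**Figure D2:**
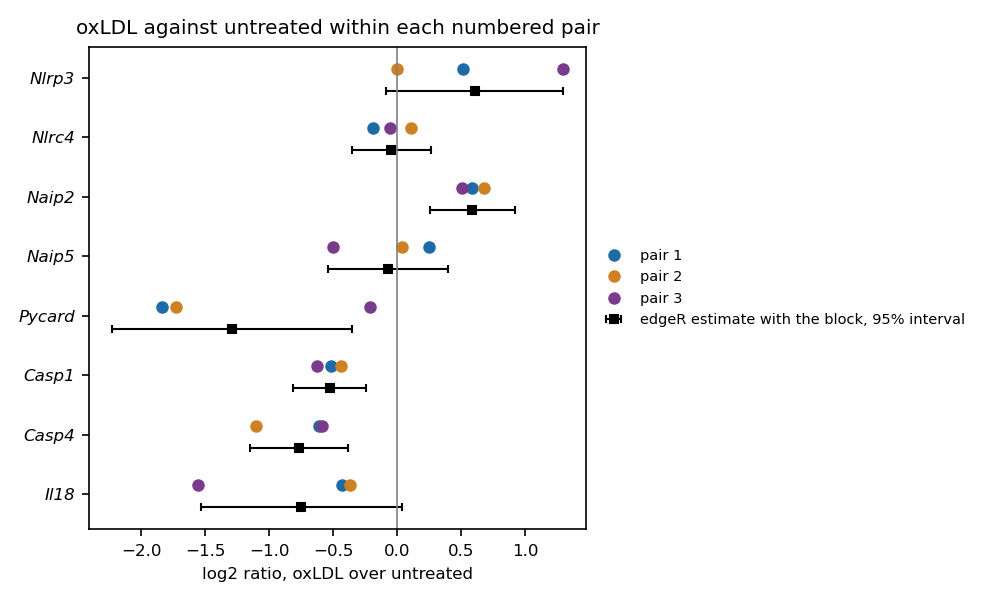
Log2 ratio of oxLDL over untreated (horizontal axis) for each component. Coloured points are the 3 numbered pairs from the deposited CPM, and squares with bars are the blocked edgeR estimates with 95% intervals. The points of Casp1 and Naip2 lie close together, while those of Nlrp3, Pycard and Il18 lie apart in pair 3.

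The numbers also differed within a group. Within the untreated group the highest sample exceeded the lowest by 4.65-fold for Pycard, 3.22-fold for Naip2 and 2.59-fold for Casp4. For Casp1 and Nlrc4 this spread was 1.17-fold and 1.05-fold. Pycard was lowest in number 3 in both groups, whereas Casp4 and Naip2 were highest there. Across the 6 samples, the tested gene outside the lists with the nearest pattern of log2 CPM was Tpi1 for Naip2, Akap17b for Casp1, Ccdc125 for Casp4 and Enox2 for Pycard. Their root mean square differences were 0.059, 0.052, 0.085 and 0.092 log2 units after centring, against own spreads of 0.82, 0.28, 0.76 and 0.94. The nearest genes of Nlrp3, Il18, Naip5 and Nlrc4 were Blm, Ppapdc3, Cdkn2aipnl and Eral1, at 0.13, 0.14, 0.067 and 0.022. Among 11400 genes and 6 samples near matches are easily found, so these names are a description only.

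Other genes of the pathway were read from 5 lists of 52 genes, of which 51 were in the tables and 45 were tested. In the blocked edgeR fit 5 of the 45 fell, 0 rose and 40 did not pass, against 3.98% of all tested genes that fell and 1.91% that rose. The 5 were Gsdmd, Irgb10, Kcnk6, Stat2 and Spi1. Without the block 0 of the 45 passed in edgeR, while 13 stood at an unadjusted p under 0.05, against 14.7% of all tested genes. With the block 26 stood at an unadjusted p under 0.05, against 29.0%. The blocked fit passed 26 with pair 3 left out (5 higher and 21 lower with oxLDL), against 29.9%, and 0 with pair 1 or pair 2 left out. The median log2 fold change of the 45 was -0.50, beside 0.012 over all tested genes.

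Of the 7 tested substrates and executioners 1 fell, against 3.98% of all tested genes. It was Gsdmd, which encodes the pore protein gasdermin D that inflammatory caspases cut. It measured 95.5, 103 and 76.4 CPM untreated and 49.6, 48.2 and 51.9 CPM with oxLDL. The groups did not overlap, and the oxLDL values were close together. Its log2 fold change was -0.87 ± 0.14 (SE; edgeR adjusted p = 0.0422 with the block and 0.0952 without it). Il1b, the cytokine precursor, measured 3.30, 2.87 and 26.6 CPM untreated and 1.61, 1.33 and 20.2 CPM with oxLDL. Both number 3 samples stood far above the rest, and its value of -0.78 ± 0.22 did not pass (edgeR adjusted p = 0.0964). Ninj1, which ruptures the membrane of dying cells, measured 110, 131 and 331 CPM untreated and 263, 263 and 377 CPM with oxLDL. It did not pass either (0.82 ± 0.25, edgeR adjusted p = 0.117).

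Of the 13 triggering and licensing genes, 2 fell and 0 rose, against 3.98% and 1.91% of all tested genes. Irgb10, an interferon-inducible GTPase that helps expose bacterial ligands and is listed in the tables as Gm12250, fell from 79.9, 93.9 and 36.6 CPM to 6.98, 4.12 and 8.96 CPM. Its log2 fold change was -3.33 ± 0.51 (SE; edgeR adjusted p = 0.0421, and 0.0831 without the block), and it did not pass with no filter on low counts (0.0631). Kcnk6, a potassium channel linked to NLRP3 triggering, measured 134, 115 and 44.9 CPM untreated and 78.4, 67.6 and 30.1 CPM with oxLDL. Its groups overlapped, and it fell by 0.71 on the log2 scale (SE 0.10; edgeR adjusted p = 0.0374, and 0.562 without the block). The guanylate-binding proteins Gbp2, Gbp3, Gbp5 and Gbp7, which coat bacteria for caspase-11, had log2 fold changes of -2.57, -2.85, -2.88 and -1.73. None passed in blocked edgeR (adjusted p between 0.0541 and 0.110). Gbp2, Gbp3 and Gbp5 passed in DESeq2 with the block (adjusted p = 1.73e-08, 7.34e-08 and 0.0205) and in edgeR without pair 3 (0.00248, 0.00111 and 0.0103). Gbp2 also passed in limma-voom with the block (0.0404). In edgeR without the block these 3 did not pass (0.497, 0.488 and 0.585). Panx1, a channel that releases nucleotides, measured 9.43, 12.9 and 29.5 CPM untreated and 91.8, 80.3 and 51.9 CPM with oxLDL, with no overlap. It did not pass in blocked edgeR (2.24 ± 0.54, adjusted p = 0.0798), nor there with pair 1 or pair 2 left out (0.330 and 0.387). It passed in DESeq2 with the block (adjusted p = 2.05e-05) and without it (0.00137), and in blocked edgeR without pair 3 (0.00120). P2rx7, the nucleotide-gated channel upstream of NLRP3, had a value of -1.02 ± 0.18 (edgeR adjusted p = 0.0503, and 0.322 without the block). It passed in DESeq2 (adjusted p = 0.000276) and limma-voom (0.0401) with the block. In blocked edgeR it passed with RLE size factors (0.0487), a minimum of 1 CPM (0.0499), no low-count filter (0.0361) and without pair 3 (0.0336). It did not pass with pair 1 or pair 2 left out (0.186 and 0.213).

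None of the 6 other tested sensors passed in edgeR with the block (0 of 6). At an unadjusted p under 0.05 stood 1 of the 6, against 29.0% of all tested genes, and DESeq2 with the block called 1, against 16.3%. Aim2, the sensor of cytosolic DNA, measured 46.5, 55.6 and 39.7 CPM untreated and 47.4, 52.9 and 40.6 CPM with oxLDL. Samples of a number were nearly level, and its log2 fold change was -0.0056 ± 0.10 (edgeR adjusted p = 0.976, 95% interval -0.27 to 0.26), with a sign that turned when pair 2 was left out (0.025). Mefv, which encodes pyrin, was the gene DESeq2 called, at -1.86 ± 0.48 in edgeR (adjusted p = 0.0878).

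Of the 7 tested brakes and decoys 0 passed in edgeR with the block, 3 stood at an unadjusted p under 0.05, against 29.0% of all tested genes, and DESeq2 with the block called 2, against 16.3%. Of the 7 estimates 4 were above 0. Il18bp, the secreted decoy that binds interleukin-18, measured 30.1, 39.5 and 89.2 CPM untreated and 9.73, 7.70 and 49.2 CPM with oxLDL. Each pair was lower with oxLDL, as for Il18 itself, and the value of -1.59 ± 0.31 did not pass (edgeR adjusted p = 0.0568). Fbxl2, a ubiquitin ligase subunit linked to NLRP3 turnover, measured 4.96, 4.53 and 6.62 CPM untreated and 12.8, 13.2 and 8.81 CPM with oxLDL. Every oxLDL sample was above every untreated one, and its value of 1.11 ± 0.28 did not pass in edgeR (adjusted p = 0.0841) but did in DESeq2 (0.0221). Serpinb1a, a protease inhibitor, was also higher without overlap, at a low level of 0.344 to 3.19 CPM (2.05 ± 0.57, edgeR adjusted p = 0.0968). Il1rn, the interleukin-1 receptor antagonist, ran from 14.8 CPM in untreated sample 1 to 873 CPM in untreated sample 3 and had a value of -0.07 ± 0.56 (edgeR adjusted p = 0.947).

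Among 12 transcription factors 2 fell and 0 rose, against 3.98% and 1.91% of all tested genes. Spi1, which encodes the myeloid factor PU.1, measured 490, 403 and 234 CPM untreated and 198, 190 and 119 CPM with oxLDL, without overlap. Its log2 fold change was -1.13 ± 0.14 (SE; edgeR adjusted p = 0.0302, and 0.214 without the block). Stat2, a transducer of type I interferon signals, went from 383, 525 and 390 CPM to 73.4, 50.2 and 134 CPM (-2.43 ± 0.39, edgeR adjusted p = 0.0442, and 0.0952 without the block). Irf8, a factor known to drive Naip and Nlrc4 genes in macrophages, stood at -0.71 ± 0.13, short of the threshold (edgeR adjusted p = 0.0547), with no overlap between the groups. Irf2, a known activator of Gsdmd, had one of -0.62 ± 0.17 (edgeR adjusted p = 0.0970).

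**Figure D3:**
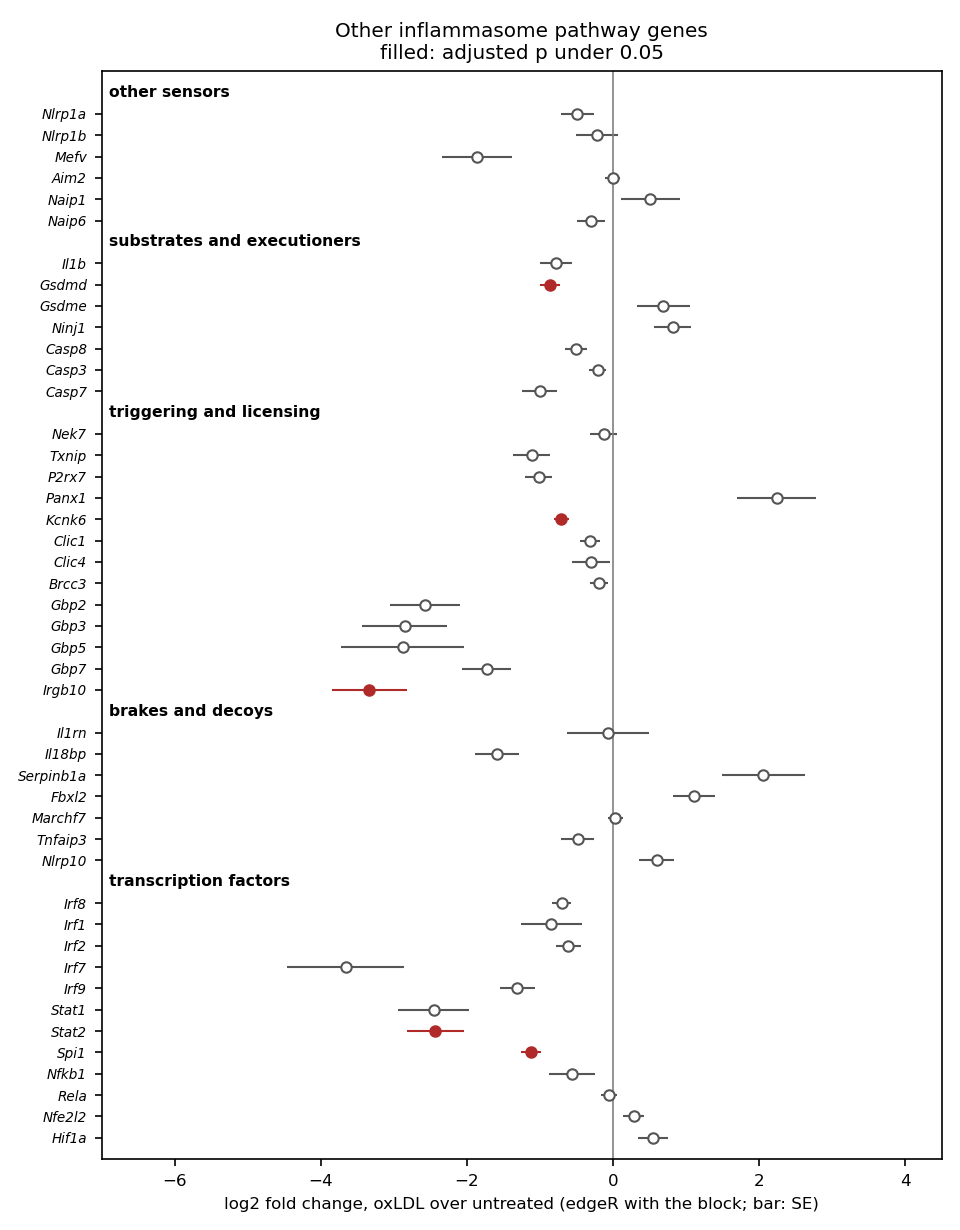
Blocked edgeR log2 fold changes (horizontal axis, oxLDL over untreated, bars are SE) of the 45 tested genes of the other pathway lists. Filled points passed an adjusted p of 0.05, and all 5 of them lie below 0.

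Calls of the 8 components varied with the tool and with the libraries used. In the plot of adjusted p by setting, Casp4, Casp1, Naip2 and Pycard lay near the threshold in the blocked edgeR fit. These genes crossed it in DESeq2 with the block and in edgeR without pair 3. In DESeq2 without the block only Casp1 crossed it. Nlrp3, Il18, Nlrc4 and Naip5 passed under none of the 12 settings run.

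**Figure D4:**
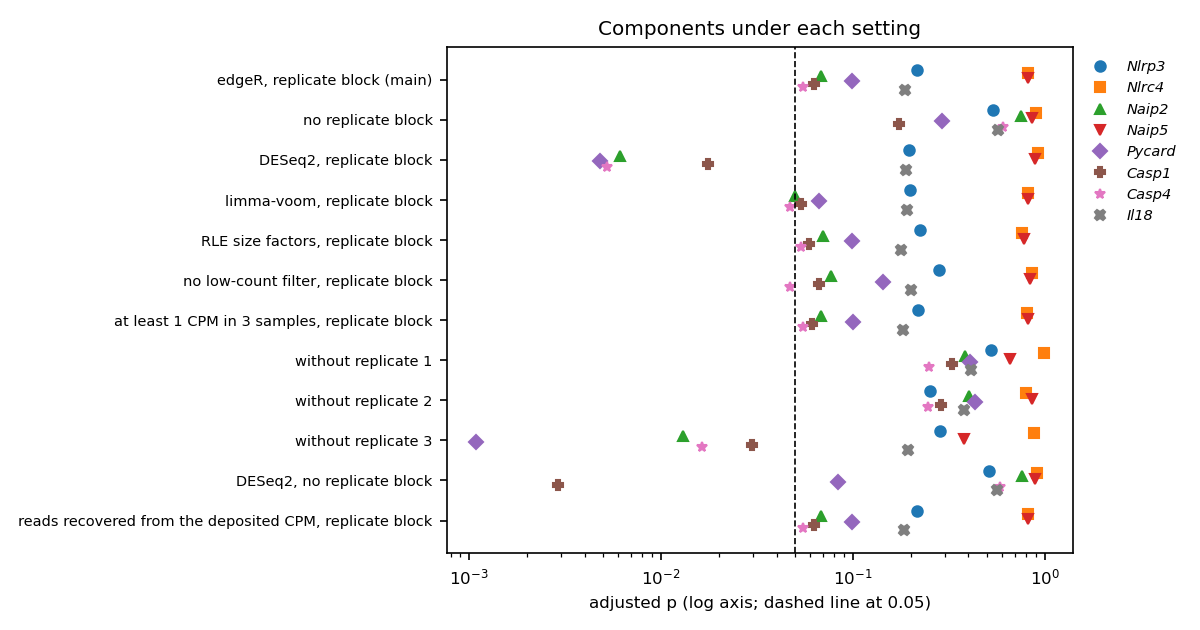
Adjusted p (horizontal log axis, dashed line at 0.05) of the 8 components under the main fit and 11 alternatives. Symbols stand for genes. Points left of the line are calls, which appear in DESeq2, in limma-voom, with no low-count filter and with replicate 3 left out.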

How the data were processed

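Bulk poly(A) RNA sequencing of 6 samples was used. The authors deposited a table of expected counts, estimated by RSEM. The submitters' processing notes name RSEM 1.2.15, Bowtie2 2.1.0 and edgeR (no version), and they list hg19, a human build, for mouse samples, so positions are RefSeq's on GRCm38.p6 and not the authors'. The strand setting and annotation of the counting are not given in the sources used here. Between 10.4% and 11.1% of expected counts per sample were not whole (tolerance 0.005), and they were rounded before testing. The authors also deposited a normalised signal, CPM on TMM-scaled library sizes per the file's name. All levels and pair ratios printed are from it, without a pseudocount. All of its values (100%) were whole reads times a constant (tolerance 0.005), at least 99.8% of them equal to the rounded counts, and the blocked test on those reads called 672 genes.

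Genes were kept with filterByExpr (minimum count 10, minimum total 15) and scaled with TMM. Groups were compared by quasi-likelihood F tests in edgeR 4.0.16 (R 4.3.3), with the number as a block and Benjamini-Hochberg adjustment over 11400 genes. It called 672 genes, 218 higher and 454 lower with oxLDL, against 0 without the block. "Rose" and "fell" refer to the blocked fit. SE and intervals derive from its F statistic. The numbers were taken as pairs from the labels. Deviations of same-numbered samples from their group means correlated across genes (r = 0.66, 0.45 and 0.70, all over 0.1). Unlike numbers also passed 0.1 in places (untreated 2 with oxLDL 1 at 0.63, untreated 1 with oxLDL 2 at 0.20). The check therefore cannot tell number 1 from number 2, and it does not establish the pairing. DESeq2 1.42.0, limma-voom (limma 3.58.1), other filters and scaling, and leaving out each pair were alternatives. Scripts were tested on simulated data. The components, lists and the choice to lead with the block were made with earlier results of these data known. Named pathway genes were those past the threshold plus Il1b, Gsdmd and Aim2, and others were chosen after their values were seen. The summed level of the B cell list is not reported here.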

Additional observations from a re-analysis of the deposited data

How the results depend on the processing

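The number of genes past the threshold was 672 with the replicate block, 0 without it in edgeR (1674 at an unadjusted p under 0.05), 1853 in DESeq2 with the block, and 0 to 3446 with one pair left out. Of the 8 components, 0 passed with the block, 4 in DESeq2 with the block, 2 in limma-voom, 1 with no low-count filter, 1 in DESeq2 without the block (chosen after seeing the data), and 0 to 4 with one pair left out. Of the other pathway genes, 5 passed with the block (5.89% of all tested genes) and 0 without it (0%). In DESeq2 22 passed with the block (16.3%), 3 higher and 19 lower with oxLDL. Without it 9 passed (7.65%), 3 higher and 6 lower. In limma-voom 12 passed (8.12%), all lower, and 0 to 26 did with one pair left out (0% to 29.9%), with 5 of the 26 higher. The shares apply to the components as well, with 4.84% for no low-count filter. Every call of the 5 ended in edgeR without the block, and in the blocked fit without pair 1 or pair 2. The fit without the block used all samples. With the remaining pair left out, where samples were as few, all 5 calls held among 26. Why the calls ended was not tested. Signs turned for Nlrc4 (-0.13 to 0.0072 over the fits with one pair left out), Naip5 (-0.25 to 0.15) and Aim2 (-0.035 to 0.025), all close to 0. The direction of Casp1, Casp4, Pycard, Il18, Nlrp3 and Naip2 was the same under all 11 alternatives. RLE size factors, a minimum of 1 CPM and the reads recovered from the deposited CPM changed no call of a component or a named pathway gene, except that P2rx7 (adjusted p = 0.0503) passed with RLE size factors (0.0487) and with the 1 CPM minimum (0.0499). Il18 rested on 34 to 163 counts, and how far they add to its SE of 0.30 was not tested.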

Other observations

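Several pathway genes differed between the numbers more than between the groups. Txnip, a thioredoxin-binding protein that can bind NLRP3, reached 857 and 944 CPM in untreated samples 1 and 2 but 11.4 CPM in untreated sample 3, with 594, 332 and 4.52 CPM in the oxLDL samples. Il1rn, the interleukin-1 receptor antagonist, stood at 14.8, 45.1 and 873 CPM untreated and 32.3, 52.2 and 305 CPM with oxLDL. Il1a, a cytokine of the interleukin-1 family that did not pass the filter on low counts, measured 0.207, 0.0719 and 16.3 CPM untreated and 0.268, 0.465 and 46.8 CPM with oxLDL, so both samples numbered 3 held nearly all of its reads. Tnfaip3, an inhibitor of NF-kB signalling, measured 53.1, 47.1 and 211 CPM untreated and 28.7, 28.4 and 234 CPM with oxLDL. These genes were chosen after their values were seen, and what sets number 3 apart was not tested.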
